A study of Mus musculus with 4 samples.

Results

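Chemokines are small secreted proteins that attract leukocytes, and chemokine receptors are the membrane proteins through which leukocytes sense them. The genes described here were the symbols in the count matrices that begin with Ccl, Cxcl, Cx3cl or Xcl (ligands) or with Ccr, Cxcr, Cx3cr, Xcr or Ackr (receptors) followed by a digit. Of the 19465 genes measured, 52 such genes were considered, and 46 of them (25 ligands and 21 receptors) reached 20 UMIs, counts of distinct captured molecules, over the 4 liver sections. Ccl28 with 21 UMIs and Ccl20 with 22 UMIs lay just inside that minimum, and Ccr8 with 15 UMIs lay just outside it. Ccl1, Cxcl3, Ccl26 and Cxcl17 had 5 or 6 UMIs each, Cxcl15 had 0, and none of these is described further. Ccl19, Ccl21a, Ccl27a, Cxcl2, Cxcl11 and Cx3cl1 are not analysed here.

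The study measured transcripts in space in formalin-fixed mouse liver with the Visium assay, in which each barcoded spot captures RNA from several cells. The Hk2-deleted section (n = 1) came from a PDGFRBcreERT2/Hk2fl/fl mouse given CCl4 (carbon tetrachloride, a toxin that injures hepatocytes around the central vein). The fibrotic sections (n = 2) came from HK2fl/fl mice given CCl4, and the healthy section (n = 1) from an HK2fl/fl mouse given olive oil. All 4 mice carried the floxed alleles of Hk2 (hexokinase 2, which phosphorylates glucose) and received tamoxifen at 75 mg/kg on 5 days, and the labels give males aged 5 months. Cre was driven by the promoter of Pdgfrb, a receptor gene of stellate cells and other mural cells. The design text gives 6 weeks of CCl4 at 2 injections a week for these mice, while the treatment protocol gives 4 or 6 weeks, and the dose was 1 µL/g. Each section was 1 mouse, so mouse and group cannot be told apart for the Hk2-deleted and healthy sections.

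In liver, chemokines made by hepatocytes, macrophages, endothelium and stellate cells are known to draw neutrophils through Cxcr2, monocytes through Ccr2 and lymphocytes through Cxcr3 and Cxcr6. Cxcl12 acts through Cxcr4 and is taken up by the atypical receptor Ackr3, which clears chemokine without classical G protein signalling. Liver lobules are zoned between a portal and a central vein, and the scars left by repeated CCl4 are known to form first around central veins.

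The sections held between 2577 and 4134 spots and between 40585039 and 67479047 UMIs, with a median of 13665 to 15588 UMIs per spot. Sections shared spot barcodes, 1710 of 4848 in all 4, because Visium barcodes mark array positions. Hepatocyte markers (Alb, Apoa1, Ttr and Serpina1c) were detected in every section. Hk2 had 3.50 CPM in the Hk2-deleted section, 4.88 and 3.94 CPM in the fibrotic sections and 1.85 CPM in the healthy section, CPM being a gene's UMIs scaled to the total UMIs of the section or set of spots (counts-per-million). Fibrotic replicate 1 went against its label of a male: Eif2s3y, a Y-linked gene, had 0.578 CPM there, against 63.2 CPM in the Hk2-deleted section, 62.1 CPM in fibrotic replicate 2 and 69.9 CPM in the healthy section. Results that changed without it are given beside the value they touch, or as counts for the comparison. How many probes each gene has is not stated in the sources used here, so levels are not compared between genes. Related genes (such as Ccl2, Ccl7 and Ccl12) and the overlapping Ccl3 and Ccl4 may share signal, which could not be checked.

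Together the 46 genes had 950.1 CPM in the Hk2-deleted section, 989 and 826 CPM in the fibrotic sections and 538 CPM in the healthy section. Ligands summed to 876 CPM in the Hk2-deleted section, 891 and 751 CPM in the fibrotic sections and 513 CPM in the healthy section, and Cxcl12 made up 42.5% to 49.4% of all member UMIs in a section. Receptors summed to 74.3 CPM in the Hk2-deleted section, 98.0 and 75.3 CPM in the fibrotic sections and 25.3 CPM in the healthy section. For 36 of 46 genes the healthy section lay below all 3 CCl4-treated sections, and for 2 (Cxcl13 and Ccl25) it lay above all 3. These orders are in raw CPM and were not counted over all genes. Without TMM scaling, the median log2 fold change of fibrotic over healthy was 0.341 over all genes. Ccl20, at 0 UMIs in the healthy section, reached the minimum of 20 UMIs only through the CCl4-treated sections. Ccr4, with 2 of its 32 UMIs in the healthy section, and Cxcr1, with 3 of 73, also passed it through them. For such genes the minimum itself favours an order with the healthy section lowest. In RefSeq annotation of GRCm38.p6, the genes the results turn on most include Cxcl1 at chr5:90891245-90893121 and Cxcl5 at chr5:90759298-90761625, Cxcr2 at chr1:74153994-74161246, Cxcl12 at chr6:117168535-117181368, Cxcr4 at chr1:128588199-128592299 and Ackr3 at chr1:90203980-90215724. Ccr2 lies at chr9:124101918-124109140. The Hk2-deleted section lay above both fibrotic sections for 12 genes and below both for 16, again not counted over all genes.

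**Figure D1:**
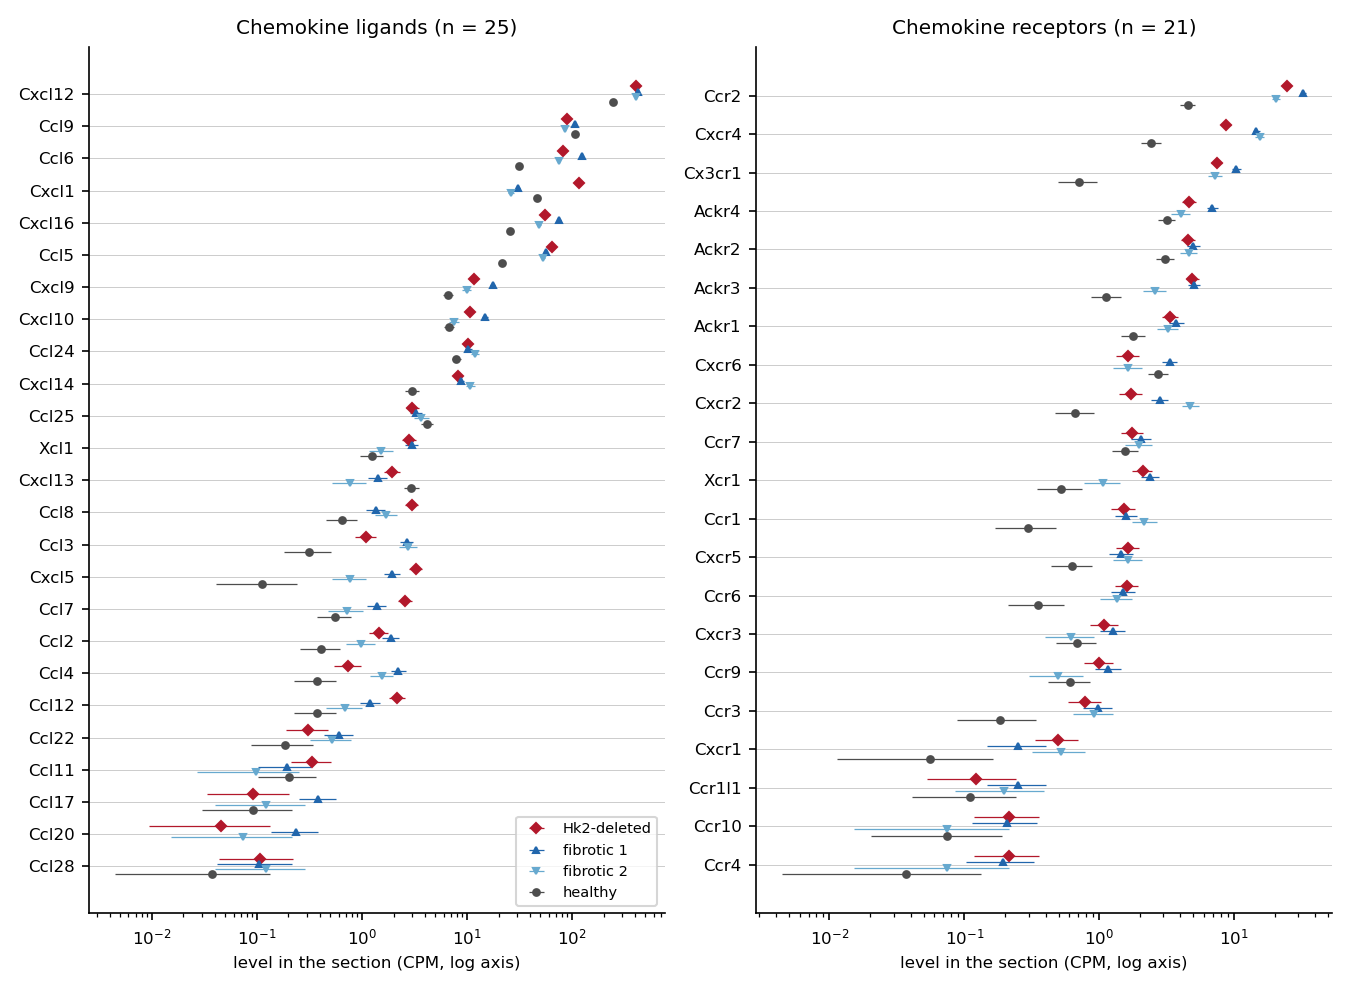
Levels of the 25 ligands (left) and 21 receptors (right) in each section, in CPM on a log axis, with exact 95% Poisson intervals that cover counting error only; a gene at 0 UMIs in a section has no point there. Cxcl1 stands apart in the Hk2-deleted section at 116 CPM, and for 36 of 46 genes the healthy section is the lowest, an order not counted over all genes.

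The first comparison asked how CCl4 changed these genes over whole sections, from a fit of fibrotic minus healthy. Of the 45 genes tested, 13 rose in the fibrotic sections (7 ligands and 6 receptors) and 2 fell, where 9.64% of all 14125 genes tested rose and 4.01% fell. That was 28.9% of the genes tested higher, and their median log2 fold change was 0.96, against 0.00424 over all genes. Ccl28 had too few counts to be tested. The receptors were Cx3cr1, Ccr1, Ccr2, Cxcr2, Cxcr4 and Ackr3, and the ligands Cxcl5, Cxcl14, Cxcl16, Ccl3, Ccl4, Ccl5 and Ccl6.

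Among the receptors, Cx3cr1, carried by monocytes and many tissue macrophages, had 7.46 CPM in the Hk2-deleted section, 10.4 and 7.27 CPM in the fibrotic sections and 0.703 CPM in the healthy section. Ccr2, the receptor that brings monocytes out of bone marrow, had 24.8 CPM in the Hk2-deleted section, 32.7 and 20.6 CPM in the fibrotic sections and 4.53 CPM in the healthy section. For both genes every CCl4-treated section lay well above the healthy one. Cx3cr1 was 9.88-fold higher in fibrotic than healthy sections (log2 3.31 ± 0.33 SE, adjusted p = 1.161e-06 by edgeR's quasi-likelihood test) and Ccr2 4.62-fold higher (log2 2.21 ± 0.23, adjusted p = 2.341e-06). Cxcr4, the Cxcl12 receptor of many leukocytes, had 8.68 CPM in the Hk2-deleted section, 14.7 and 15.5 CPM in the fibrotic sections and 2.42 CPM in the healthy section (log2 2.31 ± 0.25, adjusted p = 3.801e-06). Cxcr2, the receptor of neutrophils for Cxcl1 and Cxcl5, had 1.72 CPM in the Hk2-deleted section, 2.83 and 4.76 CPM in the fibrotic sections and 0.666 CPM in the healthy section (log2 2.19 ± 0.48, adjusted p = 0.004174). The groups did not overlap for either gene, and the 2 fibrotic sections were further apart for Cxcr2 than for Cxcr4. Ccr1, shared by monocytes and neutrophils, rose by 2.33 ± 0.58 (adjusted p = 0.009914) and Ackr3 by 1.41 ± 0.40 (adjusted p = 0.02297) on the log2 scale. Without fibrotic replicate 1, where no test can be had, Ccr2 was at 1.95 and Ackr3 at 0.96, and without fibrotic replicate 2 Cxcr2 was at 1.64. No receptor was called lower by edgeR or DESeq2, and 10 of the 21 receptors had an unadjusted p under 0.05 in either direction.

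Of the ligands that rose, Cxcl5, an attractant of neutrophils, had 3.25 CPM (212 UMIs) in the Hk2-deleted section, 1.94 and 0.764 CPM (131 and 31 UMIs) in the fibrotic sections and 0.111 CPM (6 UMIs) in the healthy section. Its fold change was 9.45 (log2 3.24 ± 0.70, adjusted p = 0.003482), and 2.53 on the log2 scale without fibrotic replicate 1. Ccl3, a ligand of Ccr1 made by activated macrophages, had 1.09 CPM in the Hk2-deleted section, 2.67 and 2.76 CPM in the fibrotic sections and 0.315 CPM in the healthy section (log2 2.77 ± 0.53, adjusted p = 0.001325). Ccl4, a related ligand, had 0.736 CPM in the Hk2-deleted section, 2.22 and 1.55 CPM in the fibrotic sections and 0.370 CPM in the healthy section (log2 2.00 ± 0.56, adjusted p = 0.02074). Ccl6, a mouse ligand made by myeloid cells, had 81.9 CPM in the Hk2-deleted section, 123 and 74.7 CPM in the fibrotic sections and 31.4 CPM in the healthy section (log2 1.30 ± 0.26, adjusted p = 0.001701). Ccl5, which attracts T and NK cells, had 65.1 CPM in the Hk2-deleted section, 56.2 and 52.5 CPM in the fibrotic sections and 21.5 CPM in the healthy section (log2 1.00 ± 0.21, adjusted p = 0.003177). Cxcl14 rose by 1.37 ± 0.27 (adjusted p = 0.001838), and Cxcl16, a membrane-bound ligand of Cxcr6, by 0.92 ± 0.23 (adjusted p = 0.01088) on the log2 scale. Without fibrotic replicate 1 the values of Ccl6 and Cxcl16 were 1.01 and 0.67, and without fibrotic replicate 2 that of Cxcl14 was 1.09. The other called members moved by less than 1 SE without either section, Cxcl5 apart. In each of these 7 ligands the healthy section was below every CCl4-treated section.

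2 ligands fell in the fibrotic sections. Cxcl13, the attractant of B cells through Cxcr5, had 1.93 CPM in the Hk2-deleted section, 1.41 and 0.764 CPM in the fibrotic sections and 2.96 CPM in the healthy section (log2 −1.78 ± 0.42, adjusted p = 0.0066), and missed the threshold with DESeq2 (adjusted p = 0.06321). Cxcl1, a neutrophil attractant, had 30.7 and 26.3 CPM in the fibrotic sections and 46.1 CPM in the healthy section (log2 −1.03 ± 0.20, adjusted p = 0.001536). That direction holds for the fibrotic sections only: for the pair of fibrotic replicate 2 and the Hk2-deleted section against healthy it was 0.27 (adjusted p = 0.8043).

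Members that did not pass the test included the ligand with the largest share of UMIs. Cxcl12 had 404 CPM in the Hk2-deleted section, 425 and 408 CPM in the fibrotic sections and 245 CPM in the healthy section, and its fitted value was 0.43 ± 0.32 on the log2 scale (adjusted p = 0.403). The groups did not overlap in raw CPM, which are not scaled by TMM as the fits are; leaving TMM out moves the median log2 fold change of all genes to 0.341 and the count of members to 16 higher and 1 lower. Cxcl9 (0.72 ± 0.25, adjusted p = 0.06339), Cxcl10 (0.38 ± 0.27, adjusted p = 0.379) and Ccl2 (1.47 ± 0.57, adjusted p = 0.09592) also missed the threshold. Ccl9, which like Ccl6 binds Ccr1 in mice, had 90.2 CPM in the Hk2-deleted section, 107 and 84.9 CPM in the fibrotic sections and 107 CPM in the healthy section (log2 −0.50 ± 0.23, adjusted p = 0.1588). Ccl20, the ligand of Ccr6, was at 3, 16 and 3 UMIs in the Hk2-deleted section and fibrotic replicates 1 and 2 and at 0 UMIs in the healthy section, which allows up to 0.0555 CPM there.

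Genes of chemokine signalling outside the family moved as well, from a list chosen with earlier results known. 11 of the 21 tested genes of receptor signalling and related attractants rose and none fell, among them the integrin subunits Itgb2 (log2 1.09) and Itga4 (1.01), the kinase subunit Pik3cg (1.06) and Rgs2 (1.01), a regulator of G protein signalling. Of 11 tested inducing cytokines and their transcription factors, 2 rose: Il1a (1.12) and Nfkbiz (adjusted p = 0.04775). Markers of the cells that carry these receptors moved with them. All 6 neutrophil markers rose, their sum being 515 CPM in the Hk2-deleted section, 592 and 1182 CPM in the fibrotic sections and 17.8 CPM in the healthy section. So did 5 of 6 macrophage and monocyte markers, at 279 CPM in the Hk2-deleted section, 407 and 284 CPM in the fibrotic sections and 101 CPM in the healthy section, while of 7 T cell markers none was called. 5 of 6 stellate cell and fibroblast markers (median log2 1.2), 4 of 5 cholangiocyte markers (1.4) and 4 of 6 B and plasma cell markers (0.98) rose too. The part of these lists in the result was not tested, and in spots that pool cells, more cells of a type and more RNA per cell cannot be told apart. Fibrotic replicate 2 together with the Hk2-deleted section, against healthy, which leaves out fibrotic replicate 1, gave 8 members higher and 0 lower, with Cxcl5 (adjusted p = 0.05363), Cxcr2, Ackr3, Ccl3, Ccl4 and Cxcl13 missing the threshold and Cxcl1 reversed.

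**Figure D2:**
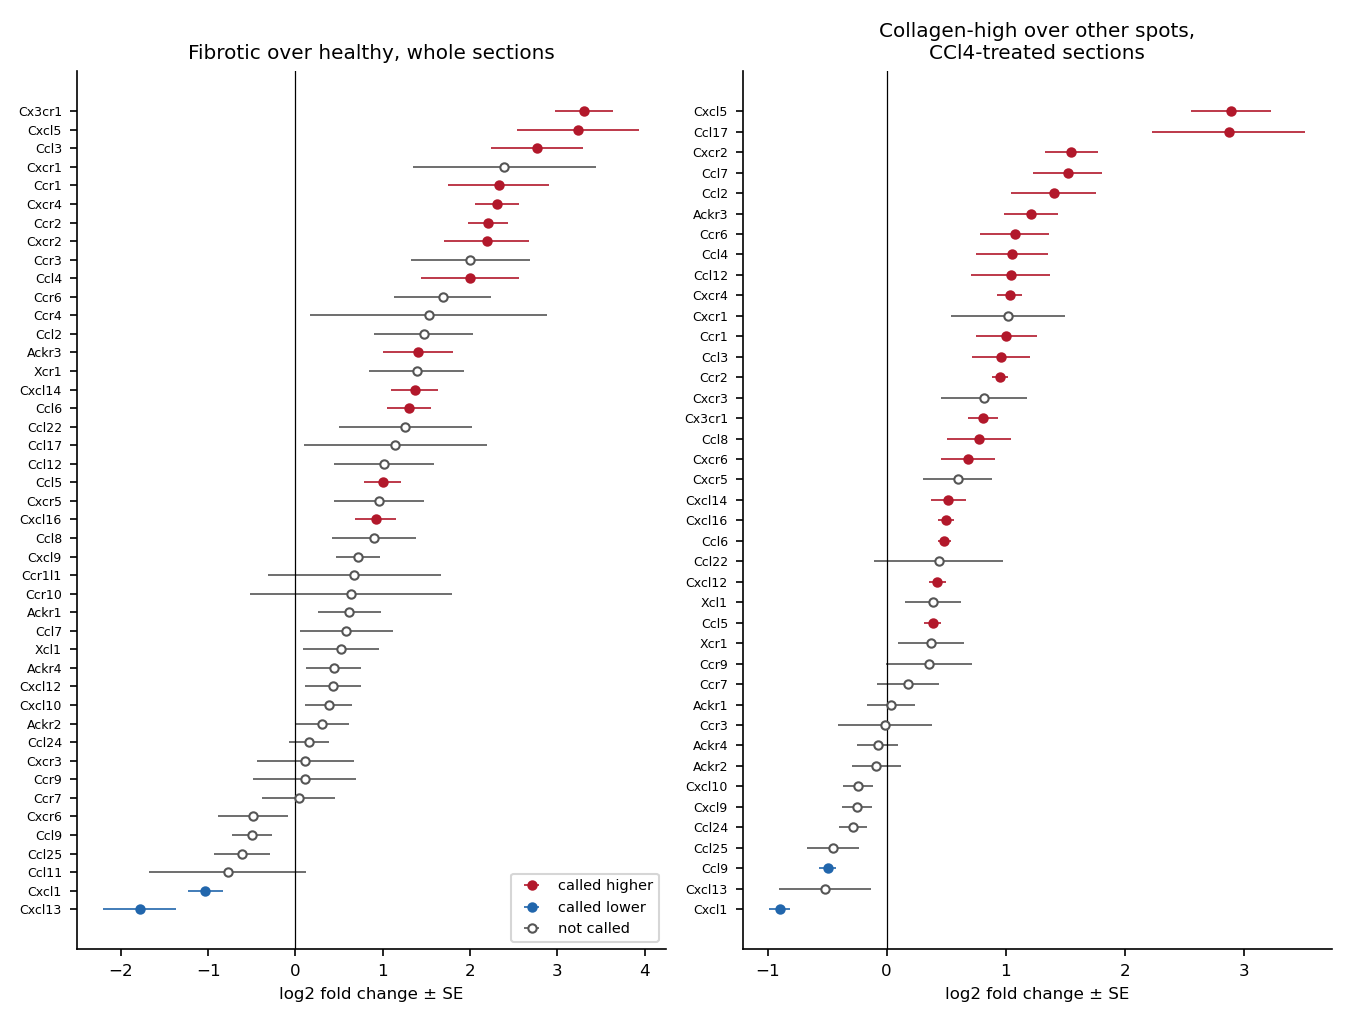
Log2 fold changes with their standard errors for fibrotic over healthy sections (left) and collagen-high over other spots of the 3 CCl4-treated sections (right), with filled points for called genes; Ccl20, at 0 UMIs in the healthy section, is left out. On the left 13 genes were called higher and 2 lower, and on the right 21 higher and 2 lower, with Cxcl1 lower in both.

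The comparison of the Hk2-deleted with the fibrotic sections asked what differed in CCl4-treated liver with Hk2 deleted under the Pdgfrb promoter. By the genotypes given, only this single mouse carried Cre, so loss of Hk2, Cre itself and the mouse cannot be told apart. Cxcl1 was the single member called. It had 116 CPM (7552 UMIs) in the Hk2-deleted section, 30.7 and 26.3 CPM (2073 and 1068 UMIs) in the fibrotic sections and 46.1 CPM (2492 UMIs) in the healthy section. It was 3.92-fold higher than in the fibrotic sections (log2 1.97 ± 0.20, adjusted p = 6.268e-05), and the value was 1.99 without fibrotic replicate 1. At least 1 UMI of Cxcl1 was found in 78.3% of spots of the Hk2-deleted section, 37.1% and 30.6% of spots of the fibrotic sections and 48.2% of spots of the healthy section. The Hk2-deleted section thus stood above all others in both measures, with fibrotic sections below the healthy one. Of all 14125 genes tested, 0.142% were called higher and 0.085% lower.

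The promoter of Cxcl1 is shown because Cxcl1 is the gene this comparison turned on, and Cxcl1 is a textbook target of NF-kappaB, an inflammatory transcription factor. The sequence is the 250 bases before the start annotated by RefSeq in GRCm38.p6, at chr5:90890995-90891244 on the plus strand of chromosome 5, and capitals mark matches to the NF-kappaB consensus.
Cxcl1: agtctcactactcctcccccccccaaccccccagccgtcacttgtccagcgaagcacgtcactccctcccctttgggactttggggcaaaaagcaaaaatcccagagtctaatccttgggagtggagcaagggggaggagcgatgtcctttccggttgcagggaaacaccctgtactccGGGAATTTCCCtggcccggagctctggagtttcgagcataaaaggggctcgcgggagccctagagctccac
The capitals are 1 stretch of 2 overlapping matches, 1 per strand, which begins 71 bases before the start. Searched on both strands, 7.25% of the 32851 promoters of the same length hold at least 1 match, and 8 of the 35 members with an entry do (22.9%). A match of letters is a description and no measured binding.

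No member was called lower by edgeR or DESeq2 with low counts filtered, and without that filter edgeR called Cxcr4 lower; 9 of 45 members had an unadjusted p under 0.05 in either direction. The larger values that did not pass were spread over both directions. Ccl7 (1.24 ± 0.47), Cxcl5 (1.22 ± 0.47), Ccl12 (1.14 ± 0.48) and Ccl8 (0.91 ± 0.43) were above 0, and their adjusted p lay between 0.9725 and 0.9998. Ccl4 (−1.40 ± 0.52), Ccl3 (−1.37 ± 0.46), Cxcr2 (−1.21 ± 0.44) and Cxcr4 (−0.86 ± 0.23, adjusted p = 0.2476) were below 0. Within the 10% of spots richest in collagen transcripts, Cxcl5 was called too (2.09 ± 0.37, adjusted p = 0.01529). Of these spots 66.1% in the Hk2-deleted section, and 49.2% and 2.33% in fibrotic replicates 1 and 2, held or touched markers of the liver surface (Msln or Upk3b). This fit was not repeated without such spots, and their part in the Cxcl5 value was not tested. Of the signalling list, Ppbp, a platelet attractant of neutrophils, was higher (1.06 ± 0.20, adjusted p = 0.02471) and Rgs1, which dampens chemokine receptor signals, was lower (−1.68 ± 0.29, adjusted p = 0.01197). None of the 6 neutrophil markers was called.

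Within sections, Cxcl1 was lower at collagen. In collagen-high spots Cxcl1 had 71.4 CPM against 121 CPM in other spots of the Hk2-deleted section, and 23.3 against 31.7 CPM and 21.5 against 26.8 CPM in the fibrotic sections. The Hk2-deleted section also holds a wide area of high Saa3, an acute phase gene: 34.3% of its spots exceeded the 99th percentile of local Saa3 in the healthy section, against 11.1% and 0% in the fibrotic sections. Inside that area Cxcl1 had 98.1 CPM, and outside it 124 CPM. Cxcl5 ran the other way, at 9.37 CPM inside and 0.615 CPM outside, as did Ccl7 at 6.16 and 1.03 CPM and Ccl2 at 3.82 and 0.417 CPM. The area held 86.8% of the Cxcl5 UMIs of the section, 79.8% of those of Ccl2 and 72.0% of those of Ccl7. With such spots left out of every section the Cxcl1 value was 2.10 (adjusted p = 5.452e-06).

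Lobule zones were compared next, to ask where along the lobule these genes lay. Spots of each section were ranked by pericentral minus periportal landmark genes and split into 3 equal zones, and the pericentral zone was compared with the periportal zone over all 4 sections. Of 38 members tested, 5 were higher in the pericentral zone (Cxcl5, Ccl4, Cxcr2, Ackr4 and Ccr2) and 3 were lower (Cxcl1, Ccl9 and Ccl24). Over all 13080 genes tested 6.42% were higher and 5.59% lower. Without any 1 of the CCl4-treated sections the count of higher members was 0, where 114 to 152 of all genes tested were higher. In each of these fits, that without fibrotic replicate 1 included, 2 of the 8 calls held. The other 6 kept their direction and missed the threshold. Without the healthy section the count of higher members was 19, with 3 lower, where 2665 of 13047 genes were higher and 2795 lower. Leaving out TMM, which moves the median log2 value of all genes to 0.214, gave 19 higher and 3 lower. Over all 13080 genes, 4373 were then higher and 385 lower.

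The periportal side was led by Cxcl1 and Ccl9. Cxcl1 had 81.8 CPM in the pericentral, 115 in the middle and 146 in the periportal zone of the Hk2-deleted section. In the fibrotic sections the pericentral and periportal values were 23.6 and 39.5 CPM in replicate 1 and 19.5 and 33.1 CPM in replicate 2, and in the healthy section they were 24.3 and 62.6 CPM. The order pericentral, middle, periportal was thus the same in every section (log2 −1.14 ± 0.09, adjusted p = 0.0008881), and the Hk2-deleted section was above the others in each zone. Ccl9 had 74.8 CPM in the pericentral and 102 CPM in the periportal zone of the Hk2-deleted section, 97.9 and 117 CPM in fibrotic replicate 1, 64.8 and 97.7 CPM in fibrotic replicate 2, and 72.7 and 129 CPM in the healthy section (log2 −0.74 ± 0.08, adjusted p = 0.002929). Ccl24, an attractant of eosinophils through Ccr3, followed with −0.62 ± 0.13 (adjusted p = 0.02677), though its zones were at 6.90 and 6.95 CPM in the healthy section.

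On the pericentral side, Ackr4, which scavenges Ccl19, Ccl21 and Ccl25, was higher pericentrally in every section. It had 6.18 CPM in the pericentral and 3.69 CPM in the periportal zone of the Hk2-deleted section, 8.52 and 4.64 CPM in fibrotic replicate 1, 5.17 and 3.42 CPM in fibrotic replicate 2, and 5.16 and 1.94 CPM in the healthy section (log2 0.67 ± 0.16, adjusted p = 0.03848). The healthy section had the widest ratio of the 4. Ccr2 had 30.7 and 18.9 CPM in the pericentral and periportal zones of the Hk2-deleted section, 43.8 and 23.0 CPM in fibrotic replicate 1, 28.9 and 14.6 CPM in fibrotic replicate 2, and 4.87 and 4.58 CPM in the healthy section (log2 0.53 ± 0.11, adjusted p = 0.02331). Cxcl5 (1.99 ± 0.34, adjusted p = 0.01257), Ccl4 (1.46 ± 0.33, adjusted p = 0.03058) and Cxcr2 (0.90 ± 0.21, adjusted p = 0.03628) completed the group. In the healthy section Cxcl5 was at 0 and 2 UMIs and Cxcr2 at 0.654 and 0.704 CPM in the pericentral and periportal zones, so 3 of the 5 genes had the higher raw CPM pericentrally in all 4 sections. With collagen-high spots left out, Cxcl5, Ccr2 and Cxcr2 missed the threshold, at adjusted p = 0.1109, 0.08633 and 0.09026. All 6 neutrophil markers, 5 of 6 stellate cell and fibroblast markers, 5 of 6 B and plasma cell markers (median log2 0.981), 2 of 3 mesothelial markers (1.19), 2 of 6 macrophage and monocyte markers and 1 of 4 NK cell markers were also higher in the pericentral zone. Their part in the result was not tested.

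The difference between zones depended on treatment for 6 members. In the fit of the zonal difference in the CCl4-treated sections minus that in the healthy section, 41 members were tested, 6 had a positive term and 0 a negative one, where 7.9% of 13345 genes were called positive and 9.98% negative. Among these 41 members 17 had an unadjusted p under 0.05, and DESeq2 called 4 positive and 0 negative. Without fibrotic replicate 1 the counts were 9 and 0.

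4 of the 6 were ligands and 2 receptors. Ccl6 had 109 CPM in the pericentral and 57.4 CPM in the periportal zone of the Hk2-deleted section, 168 and 75.4 CPM in fibrotic replicate 1, 104 and 49.4 CPM in fibrotic replicate 2, and 26.2 and 29.3 CPM in the healthy section. The pericentral zone was the higher in each CCl4-treated section and the lower in the healthy one (term 1.08 ± 0.12, adjusted p = 5.449e-05). Ccl5, at 85.2 and 49.9, 73.4 and 40.0, and 77.6 and 29.7 CPM in the pericentral and periportal zones of the Hk2-deleted section and fibrotic replicates 1 and 2, and 19.8 and 21.6 CPM in the healthy section, had a term of 0.96 ± 0.19 (adjusted p = 0.003326). Cxcl16 had a term of 0.90 ± 0.12 (adjusted p = 0.0001808), its healthy zones being at 23.2 and 26.3 CPM. Cxcr4 had 12.3 and 6.26 CPM in the pericentral and periportal zones of the Hk2-deleted section, 20.8 and 8.95 CPM in fibrotic replicate 1, 26.2 and 9.28 CPM in fibrotic replicate 2, and 1.89 and 2.68 CPM in the healthy section (term 1.60 ± 0.35, adjusted p = 0.005552). All of these ran toward the central vein in every CCl4-treated section and slightly away from it in the healthy section.

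Cxcl1 and Ccr6 were of other kinds. Cxcl1 stayed periportal in every section and its term of 0.45 ± 0.11 (adjusted p = 0.009797) means a smaller periportal excess in the CCl4-treated sections; DESeq2 did not call it (adjusted p = 0.2303). Ccr6, the receptor of Ccl20 on B cells and some T cells, had 2 and 11 UMIs in the pericentral and periportal zones of the healthy section, so its term of 3.04 ± 0.99 (adjusted p = 0.04515) rests on few counts. In the same fit all 6 markers of stellate cells and fibroblasts, 3 of 6 macrophage and monocyte markers, 3 of 5 Kupffer cell markers and 1 of 6 neutrophil markers had a called positive term. So had 4 of 5 cholangiocyte (median 1.47), 2 of 6 B and plasma cell, 2 of 5 dendritic cell and 1 of 7 T cell markers, and the part of these lists in the result was not tested. Of the signalling list, 12 of 21 genes had a positive term and none a negative one, with Rgs1 at 1.83 ± 0.27 and Rgs2 at 1.42 ± 0.18. Of 10 inducing cytokines and factors, Il1b (0.74 ± 0.19), Irf7 (0.73 ± 0.09) and Nfkb1 (0.52 ± 0.13) did.

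**Figure D3:**
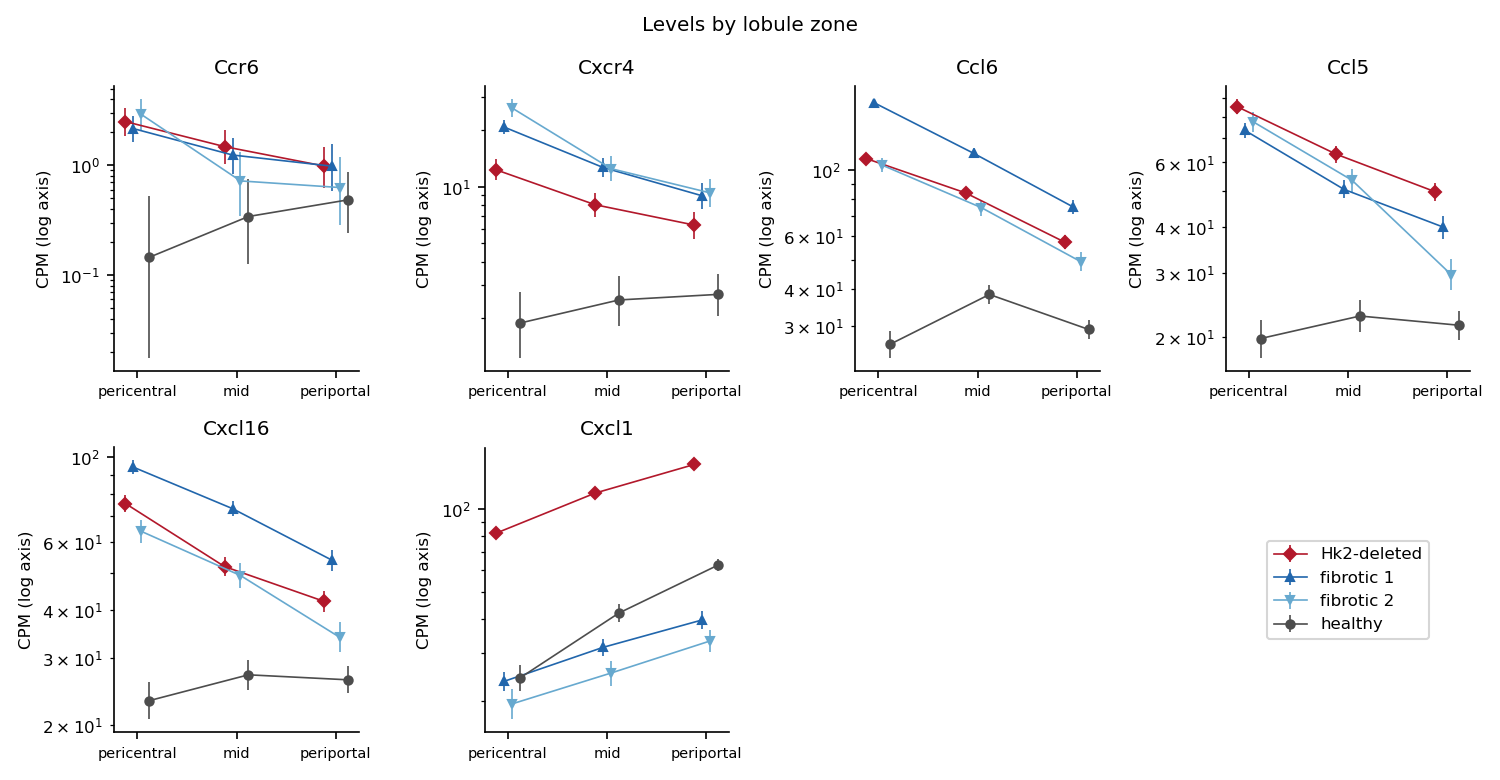
Levels of the 6 genes whose zonal difference depended on CCl4 in the pericentral, middle and periportal zone of each section, in CPM on a log axis with exact 95% Poisson intervals. For Cxcr4, Ccl6, Ccl5 and Cxcl16 the CCl4-treated sections run down from pericentral to periportal while the healthy section does not, and Cxcl1 runs up in all 4 sections.

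Collagen-rich spots were examined to ask which chemokines lay where collagen transcripts were high. Within a section, spots were ranked by the share of their UMIs from 3 fibrillar collagen genes (Col1a1, Col1a2, Col3a1), and the top 10% were called collagen-high: 386 spots in the Hk2-deleted section, 413 in fibrotic replicate 1, 258 in fibrotic replicate 2 and 306 in the healthy section. In the CCl4-treated sections 69.4% to 81.8% of them were pericentral. Of the collagen-high spots 66.1% in the Hk2-deleted section, and 49.2% and 2.33% in fibrotic replicates 1 and 2, held Msln or Upk3b, markers of the mesothelium that lines the liver surface, or touched a spot that did. In the 3 CCl4-treated sections, 21 of 40 members tested were higher in collagen-high than in other spots (13 ligands and 8 receptors) and 2 were lower. That was 52.5% higher, while 21.7% of all 13493 genes tested were higher and 22.0% lower, and the median log2 fold change was 0.51 for members and 0.0146 for all genes. Without fibrotic replicate 1, 18 were higher and 3 lower. With the spots at mesothelial markers left out, Ccl2 (adjusted p = 0.2135), Ccl8 (0.1311) and Cxcl14 (0.4468) missed the threshold, and with DESeq2 Cxcr6 (adjusted p = 0.1584), Ccl12 (0.1388), Ccl8 (0.1764) and Cxcl14 (0.05649) did; the other calls held in both.

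The neutrophil ligand and its receptor were both concentrated there. Cxcl5 had 22.8 CPM in collagen-high and 1.19 CPM in other spots of the Hk2-deleted section, 6.87 and 1.32 CPM in fibrotic replicate 1, and 2.55 and 0.594 CPM in fibrotic replicate 2 (log2 2.89 ± 0.34, adjusted p = 8.392e-06). Cxcr2 had 6.42 and 1.22 CPM in collagen-high and other spots of the Hk2-deleted section, 5.81 and 2.45 CPM in fibrotic replicate 1, and 15.6 and 3.72 CPM in fibrotic replicate 2 (log2 1.55 ± 0.22, adjusted p = 5.718e-05). Both were higher in collagen-high spots of all 3 sections, with the widest ratio for Cxcl5 in the Hk2-deleted section. In the healthy section, not part of the fit, Cxcr2 had 0.214 CPM in collagen-high and 0.709 CPM in other spots. The sum of the 6 neutrophil markers, all called higher, was 1475 CPM in collagen-high and 414 CPM in other spots of the Hk2-deleted section, 1100 and 528 CPM in fibrotic replicate 1, and 2861 and 1022 CPM in fibrotic replicate 2. Their part in the Cxcr2 result was not tested.

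Cxcl12 and both of its receptors were higher in collagen-high spots. Cxcl12 had 695 and 373 CPM in collagen-high and other spots of the Hk2-deleted section, 564 and 407 CPM in fibrotic replicate 1, 696 and 380 CPM in fibrotic replicate 2, and 279 and 242 CPM in the healthy section (log2 0.43 ± 0.07 over the CCl4-treated sections, adjusted p = 0.0002459). Cxcr4 had 20.4 and 7.45 CPM in collagen-high and other spots of the Hk2-deleted section, 27.9 and 13.0 CPM in fibrotic replicate 1, and 39.4 and 13.3 CPM in fibrotic replicate 2 (log2 1.03 ± 0.10, adjusted p = 2.061e-06). Ackr3 had 17.3 and 3.60 CPM in collagen-high and other spots of the Hk2-deleted section, 9.25 and 4.54 CPM in fibrotic replicate 1, and 4.54 and 2.40 CPM in fibrotic replicate 2 (log2 1.22 ± 0.23, adjusted p = 0.0005809). Every CCl4-treated section was higher in collagen-high spots for all 3 genes. All 6 stellate cell and fibroblast markers were called higher there as well, led by Lum (1.62 ± 0.09). So were all 3 mesothelial, all 3 smooth muscle, all 6 B and plasma cell, 4 of 5 cholangiocyte, 4 of 7 T cell and 2 of 5 dendritic cell markers, and apart from the mesothelial spots their part was not tested.

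The monocyte axis followed. Ccr2 had 51.5 and 22.0 CPM in collagen-high and other spots of the Hk2-deleted section, 69.4 and 28.1 CPM in fibrotic replicate 1, and 44.8 and 18.4 CPM in fibrotic replicate 2 (log2 0.95 ± 0.07, adjusted p = 1.528e-07), and Cx3cr1 rose by 0.81 ± 0.12 (adjusted p = 0.0001035). Of the Ccr2 ligands, Ccl7 had 9.79 and 1.82 CPM in collagen-high and other spots of the Hk2-deleted section, 2.91 and 1.20 CPM in fibrotic replicate 1, and 1.42 and 0.648 CPM in fibrotic replicate 2 (log2 1.52 ± 0.29, adjusted p = 0.0006248). Ccl2 (1.40 ± 0.36, adjusted p = 0.005422) and Ccl12 (1.04 ± 0.33, adjusted p = 0.01905) were called in the 3 sections together. Without the Hk2-deleted section their values were 0.62 (adjusted p = 0.1551) and 0.25 (adjusted p = 0.6877). 4 of 6 macrophage and monocyte markers were higher in collagen-high spots, led by Gpnmb (1.07 ± 0.07), while of 5 Kupffer cell markers none was higher and Marco (−1.28 ± 0.08) and Timd4 (−0.48 ± 0.13) were lower.

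The other members called higher ranged widely in size. Ccl17, an attractant of Ccr4-bearing T cells, had the largest of these values (2.87 ± 0.64, adjusted p = 0.002187), yet from 42 UMIs in all sections, and it had no UMI in the collagen-high spots of fibrotic replicate 2. Ccr6 (1.08 ± 0.29), Ccl4 (1.05 ± 0.30), Ccr1 (1.01 ± 0.26), Ccl3 (0.96 ± 0.24) and Ccl8 (0.78 ± 0.27) came next. Cxcr6 (0.68 ± 0.23), Cxcl14 (0.52 ± 0.14), Cxcl16 (0.50 ± 0.06), Ccl6 (0.49 ± 0.06) and Ccl5 (0.39 ± 0.07) were called with smaller values. Ccr6 and Ccl8 missed the threshold without the Hk2-deleted section (adjusted p = 0.07991 and 0.1588), Ccl8, Cxcr6 and Cxcl14 without fibrotic replicate 1 (adjusted p = 0.1352, 0.1914 and 0.1559), and Ccl4 without fibrotic replicate 2 (adjusted p = 0.1047). 20 of the 21 had the higher raw CPM in collagen-high spots of every CCl4-treated section, though Ccl8 in fibrotic replicate 2 was level at 1.701 and 1.7 CPM. Raw CPM are not TMM-scaled, and the share of all genes with this order was not counted. The 21 genes were called from these same sections, so the order within each section is no separate support for the calls.

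Cxcl1 and Ccl9 were lower in collagen-high spots. Cxcl1 fell by 0.90 ± 0.09 (adjusted p = 1.881e-06) and Ccl9 by 0.50 ± 0.07 (adjusted p = 4.16e-05) on the log2 scale. Ccl9 had 81.9 CPM in collagen-high and 91.1 CPM in other spots of the Hk2-deleted section, 104 and 108 CPM in fibrotic replicate 1, and 66.6 and 86.6 CPM in fibrotic replicate 2. Both genes were the lower in collagen-high spots of all 3 sections. Without TMM, which moves the median of all genes to 0.335 in this fit, 26 members were higher and 2 lower. Over all 13493 genes, 7410 were then higher and 682 lower. Cxcl9 (−0.25 ± 0.13, adjusted p = 0.1195) and Cxcl10 (−0.24 ± 0.12, adjusted p = 0.1253) did not pass the test in either direction. Of the signalling list 16 of 21 genes were higher and 2 lower (Dpp4, −0.43, and Rarres2, −0.37), with Pf4 (0.81 ± 0.14), Dock2 (0.73 ± 0.10) and Itgb2 (0.73 ± 0.07) the largest. Of the 9 inducing genes tested Il1b (0.52 ± 0.10), Nfkb1 (0.42 ± 0.07), Nfkbiz (0.35 ± 0.08) and Nfkbia (0.29 ± 0.06) were higher.

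Levels were then followed by distance, in steps of neighbouring spots. Cxcl5 in the Hk2-deleted section was at 22.8 CPM in collagen-high spots, 2.24 CPM at 1 step, 1.74 CPM at 2 steps and 0.570 CPM at 5 or more steps. Cxcr4 there was at 20.4, 10.3 and 6.42 CPM at 0, 1 and 2 steps, and at 6.79 CPM at 5 or more. Cxcl12 fell off more slowly, at 695, 425 and 399 CPM at 0, 1 and 2 steps and 335 CPM at 5 or more in the Hk2-deleted section. Cxcl1 ran the other way, at 71.4, 105 and 118 CPM at 0, 1 and 2 steps and 129 CPM at 5 or more. In fibrotic replicate 2 the same 4 genes ran in the same directions from collagen-high spots to 5 or more steps: Cxcl5 2.55 and 0.564 CPM, Cxcr4 39.4 and 11.3 CPM, Cxcl12 696 and 322 CPM, and Cxcl1 21.5 and 30.8 CPM.

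**Figure D4:**
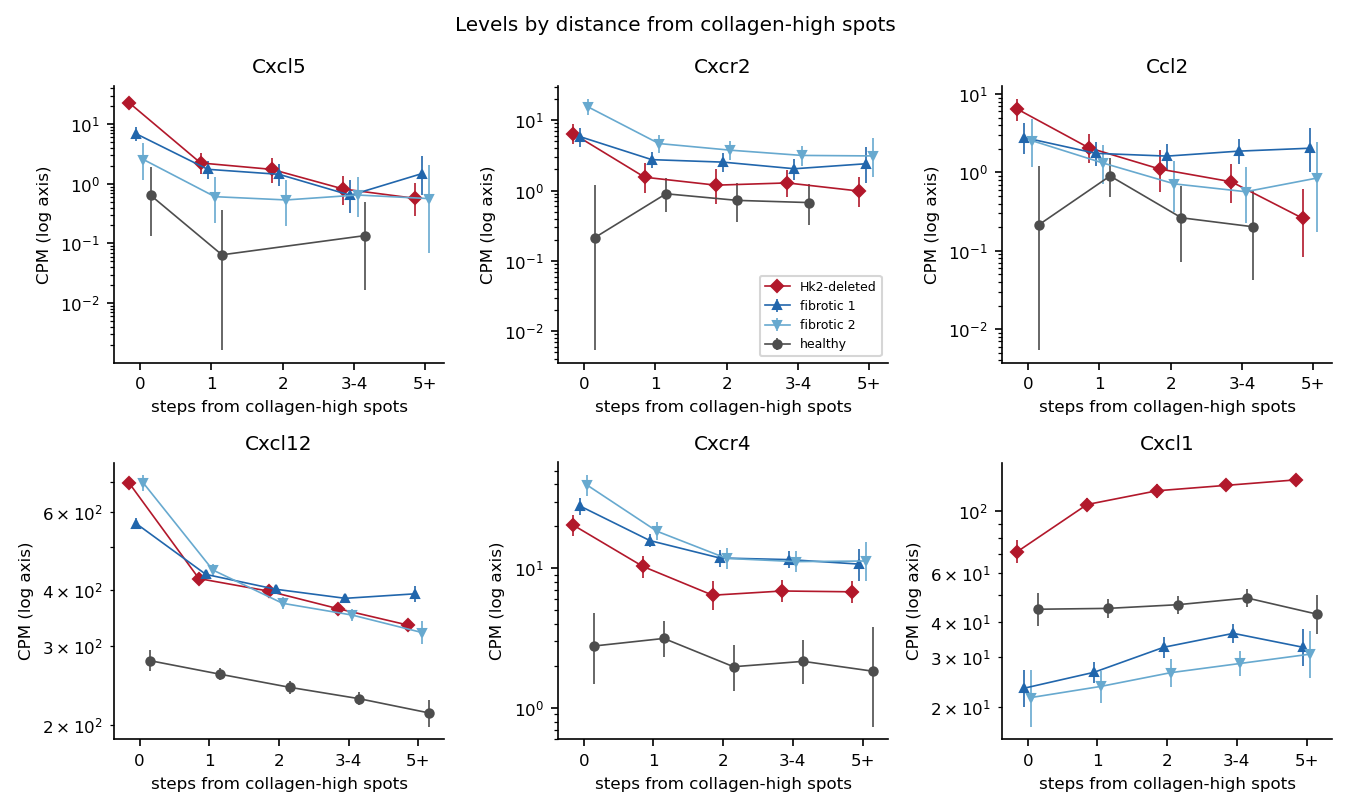
Levels of 6 genes by the number of steps from the nearest collagen-high spot (0 is the collagen-high spots), per section, in CPM on a log axis with exact 95% Poisson intervals; points at 0 UMIs are not drawn. Cxcl5 in the Hk2-deleted section is at 22.8 CPM at 0 steps and 2.24 CPM at 1 step, and Cxcl1 is lowest at 0 steps in all 3 CCl4-treated sections.

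Whether the collagen-high difference depended on Hk2 deletion was tested with an interaction term. Of 45 members, Cxcl5 (1.89 ± 0.40, adjusted p = 0.0006237), Ccl2 (1.83 ± 0.51, adjusted p = 0.03455) and Ackr3 (1.22 ± 0.31, adjusted p = 0.01186) had a positive term and none a negative one, against 1.09% and 0.158% of 13954 genes. 8 members had an unadjusted p under 0.05, and DESeq2 called none in either direction. Ccl2 had 6.42 and 0.916 CPM in collagen-high and other spots of the Hk2-deleted section, 2.78 and 1.77 CPM in fibrotic replicate 1, and 2.55 and 0.837 CPM in fibrotic replicate 2. For all 3 genes the Hk2-deleted section had the widest ratio between the spot kinds. With the spots at mesothelial markers left out of every section no member was called by edgeR, and the terms were 0.08 for Cxcl5 (adjusted p = 0.9963), 0.82 for Ackr3 (adjusted p = 0.8685) and −0.08 for Ccl2 (adjusted p = 0.9979). A fit without fibrotic replicate 1 has no residual degree of freedom, so no test can be given. Of the neutrophil markers 5 of 6 had a positive term, as did 3 of 6 stellate cell and fibroblast, 2 of 5 cholangiocyte and 1 of 3 mesothelial markers, and 2 of 5 Kupffer cell markers had a negative one. The area of high Saa3 held most UMIs of Cxcl5 and Ccl2 in the Hk2-deleted section, as given above, and its part in these terms was not tested.

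Ligands were last paired with their receptors by place. For each ligand, spots with at least 1 UMI of it were compared with the rest, over sections with at least 20 spots of each kind. Of 31 known pairs 23 had both genes among the members, and 18 pairs over 17 ligands could be fitted; Ccl11-Ccr3, Ccl17-Ccr4, Ccl22-Ccr4, Ccl20-Ccr6 and Ccl28-Ccr10 had too few ligand-positive spots. Ligand-positive spots were deeper in 65 of 65 sets of a ligand and a section, by 1.01 to 1.97 times in median UMIs. The receptor's level was above that of ligand-negative spots in 15 pairs and below it in 3, and 2 pairs passed the test, both upward. No receptor was called lower by edgeR or DESeq2, 4 of 18 pairs had an unadjusted p under 0.05, and DESeq2 called none higher.

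Cxcr2 was higher in spots where Cxcl5 was found. Cxcr2 had 6.50 CPM in Cxcl5-positive and 1.53 CPM in Cxcl5-negative spots of the Hk2-deleted section, 4.07 and 2.79 CPM in fibrotic replicate 1, and 9.53 and 4.69 CPM in fibrotic replicate 2, from 16, 9 and 5 UMIs in the positive spots (log2 1.10 ± 0.39, adjusted p = 0.04001; 7.77% of genes were higher and 6.06% lower in Cxcl5-positive spots). With collagen-high spots left out the value was 0.34 (adjusted p = 0.9142), and without the Hk2-deleted section it was 0.56 (adjusted p = 0.6638). It was 0.43 (adjusted p = 0.2957) with neighbouring spots added. The adjusted p was 0.07835 without fibrotic replicate 2, and 0.1118 when adjusted over all ligand fits together. Cxcl1, another Cxcr2 ligand, gave −0.09 ± 0.15 (adjusted p = 0.853). Cxcr2 had 1.66 CPM in Cxcl1-positive and 1.99 CPM in Cxcl1-negative spots of the Hk2-deleted section, the reverse of its order by Cxcl5.

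Ccr2 was higher where Ccl12 was found. Ccr2 had 36.4 CPM in Ccl12-positive and 24.3 CPM in Ccl12-negative spots of the Hk2-deleted section, 41.5 and 32.5 CPM in fibrotic replicate 1, and 33.2 and 20.5 CPM in fibrotic replicate 2 (log2 0.40 ± 0.12, adjusted p = 0.02415; 2.33% of genes were higher and 3.33% lower). Positive spots were the higher in each CCl4-treated section. With collagen-high spots left out the value was 0.22 (adjusted p = 0.7984), and without fibrotic replicate 1 it was 0.49 (adjusted p = 0.06462). Without fibrotic replicate 2 and without the Hk2-deleted section the adjusted p was 0.09157 and 0.584. Ccl2-Ccr2 (0.52 ± 0.15, adjusted p = 0.08492, but 0.04363 when adjusted over all ligand fits together), Cxcl16-Cxcr6 (0.27 ± 0.14, adjusted p = 0.222) and Xcl1-Xcr1 (−0.20 ± 0.41, adjusted p = 0.9109) did not pass the test.

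Some ligands were found in nearly every spot: 96.8% to 98.5% of spots in a section had a Cxcl12 UMI, and 0.184% of genes were higher and 0.0229% lower in them. In an alternative added after the data were seen, the 10% of spots with the highest share of such a ligand were compared with the rest. For a ligand found in fewer than 10% of spots, this set was its ligand-positive spots again. Then 5 pairs passed, of which Cxcl5-Cxcr2 and Ccl12-Ccr2 repeat the fits above. Added were Cxcl12-Cxcr4 (0.75, adjusted p = 0.00144), Cxcl12-Ackr3 (1.00, adjusted p = 0.003848) and Ccl6-Ccr1 (0.97, adjusted p = 0.006207). The share of all genes called in these fits is not given here. Cxcl1-Cxcr2 was at −0.44 (adjusted p = 0.5436) there.

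**Figure D5:**
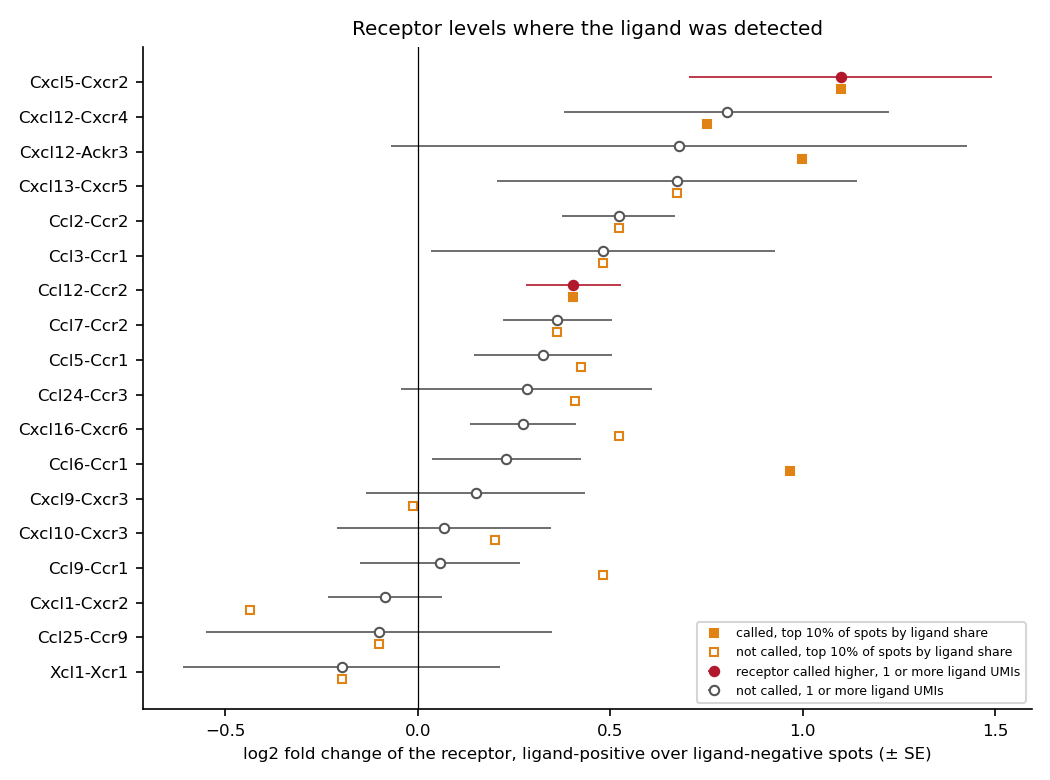
Log2 fold change of each receptor between ligand-positive and ligand-negative spots for 18 pairs (circles with standard errors; filled where called), and between the 10% of spots with the highest ligand share and the rest (squares; filled where called). Cxcl5-Cxcr2 and Ccl12-Ccr2 are filled circles, and 5 squares are filled. For a ligand found in fewer than 10% of spots, as in these pairs, the square uses the same spots as the circle.

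Members also met other members in space. In Cxcl5-positive spots 12 genes of the family other than Cxcl5 were called, with Ccl7 (2.15 ± 0.45), Ccl2 (2.13 ± 0.46), Ccr1 (1.58 ± 0.46), Ackr3 (1.33 ± 0.30), Cxcr2, Cxcr4 (0.94 ± 0.18) and Ccr2 (0.69 ± 0.13) higher and Cxcl1 (−0.65 ± 0.13) lower. Cx3cr1 (0.74), Ccl6 (0.48), Cxcl16 (0.41) and Cxcl12 (0.26) were the other members higher there. In the same spots all 3 mesothelial and all 6 neutrophil markers were called higher, with Msln at 2.52 ± 0.25 and Ltf at 1.36 ± 0.11, and their part in the result was not tested. In Ccl5-positive spots (4.37% of genes higher and 5.86% lower) Xcl1 (1.15 ± 0.14), Ccr6 (0.74 ± 0.19), Cxcr6 (0.65 ± 0.13) and Cxcl9 (0.43 ± 0.07) were higher. Cx3cr1 (0.31), Ccr2 (0.29), Cxcl10 (0.23), Cxcr4 (0.22) and Ccl6 (0.15) followed. All 4 NK cell markers were called higher there, with Gzma at 1.04 ± 0.08, as were 5 of 7 T cell markers, with Cd3e at 0.75 ± 0.09. In Xcl1-positive spots (1.14% higher and 1.49% lower), Ccl5 (0.78 ± 0.06) and Cxcl9 (0.73 ± 0.12) were higher in turn, with Cxcl10 (0.55) and Ccr2 (0.39). Cxcl1-positive spots (0.906% of genes higher and 0.756% lower) had more Ccl9 (0.17 ± 0.04) and less Cxcr4 (−0.33 ± 0.07), with 10 of 12 periportal landmarks higher and 3 of 6 neutrophil markers lower. Ccl24-positive spots (0.219% of genes higher and 0.144% lower) had 4 of 5 Kupffer cell markers higher, led by Marco (0.50 ± 0.03), and no called member.

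Receptors of monocytes were higher where Ccl6 or Cxcl16 was found. In Ccl6-positive spots (3.09% of genes higher and 0.881% lower) Cxcl5 (0.82), Cx3cr1 (0.45 ± 0.11), Ccr2 (0.31 ± 0.05), Cxcr4 (0.31 ± 0.08) and Ccl5 (0.21) were higher. In Cxcl16-positive spots (5.62% higher and 5.88% lower) Cxcl5 (1.54 ± 0.21), Cxcr4 (0.37 ± 0.06), Cx3cr1 (0.35 ± 0.08), Ackr3 (0.34 ± 0.11), Ccr2 (0.24), Cxcl9 (0.20) and Ccl6 (0.13) were higher. In Ccl7-positive spots (2.51% higher and 1.91% lower) Cxcl5 (2.87 ± 0.40), Ccl2 (1.59 ± 0.47), Cxcr4 (0.68 ± 0.20) and Cxcl16 (0.35) were higher and Cxcl9 (−0.72 ± 0.23) was lower. In Ccl2-positive spots (0.701% higher and 0.113% lower) Cxcl5 (2.87) and Cxcl10 (1.495) were higher. All 6 neutrophil markers were higher in Ccl6-positive and in Cxcl16-positive spots, as were Msln (0.65) and Wt1 (0.60) of the 3 mesothelial markers in Cxcl16-positive spots and all 3 in Ccl7-positive spots, and their part was not tested. Ccl25-positive spots, where 0% of genes were higher and 0.0453% lower, held no called member.

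Cxcl9 and Cxcl10, which interferon-gamma induces and which share the receptor Cxcr3, were found together. In Cxcl9-positive spots (0.0676% of genes higher and 0.00751% lower) Cxcl10 was higher by 0.69 ± 0.11 (adjusted p = 0.0004933) and Ccl5 by 0.20, and in Cxcl10-positive spots (0.135% higher and 0.0225% lower) Cxcl9 was higher by 0.48 ± 0.07 (adjusted p = 6.501e-05). Cxcr3 did not pass the test in either, at 0.15 ± 0.28 (adjusted p = 1) and 0.07 ± 0.28 (adjusted p = 0.9999). In the authors' deposited table Moran's I, a score of how clustered a gene's spots are, for Cxcl10 was 0.0264 in the Hk2-deleted section, 0.0240 in fibrotic replicate 1, 0.0043 in fibrotic replicate 2 and 0.0908 in the healthy section. For Cxcl12 the authors' deposited table gave 0.1217 in the Hk2-deleted section, 0.1004 in fibrotic replicate 1, 0.1253 in fibrotic replicate 2 and 0.0349 in the healthy section.

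The promoters of these neighbours are shown because the genes moved together. Each is the 250 bases before the RefSeq start in GRCm38.p6, on the minus strand of chromosome 5 and printed 5′ to 3′, Cxcl9 at chr5:92328080-92328329 and Cxcl10 at chr5:92348890-92349139. Capitals mark matches to the NF-kappaB consensus and to the core of the interferon response element, 2 copies of GAAA with any 2 bases between them.
Cxcl9: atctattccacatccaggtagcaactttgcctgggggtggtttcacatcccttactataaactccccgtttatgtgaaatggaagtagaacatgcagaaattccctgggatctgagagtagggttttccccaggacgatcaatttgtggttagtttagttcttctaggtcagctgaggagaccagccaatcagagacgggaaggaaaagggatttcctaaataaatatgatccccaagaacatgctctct
Cxcl10: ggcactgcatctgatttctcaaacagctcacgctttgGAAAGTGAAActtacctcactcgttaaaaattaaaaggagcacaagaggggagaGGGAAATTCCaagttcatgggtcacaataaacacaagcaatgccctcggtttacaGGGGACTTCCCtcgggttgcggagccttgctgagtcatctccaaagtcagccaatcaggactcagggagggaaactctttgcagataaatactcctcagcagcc
The Cxcl10 window holds the GAAA pair 213 bases before the start and 2 NF-kappaB stretches of 4 matches in all, beginning 159 and 104 bases before it, and no 2 of the stretches overlap. The Cxcl9 window holds neither motif, which says only that these letters are not in it. On both strands the GAAA pair was in 2.98% of the 32851 promoters and in 2 of the 35 members with an entry (5.71%).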

How the data were processed

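UMI counts per gene and spot were deposited for 4 Visium sections of mouse liver, made with Space Ranger 2.0.0 per the file headers and with the genome mm10 per the submitters' processing notes. Moran's I, a score of spatial clustering, was deposited per gene and section, and the tool is not given in the sources used here. Coordinates and promoters came from RefSeq tables of GRCm38.p6, in which 35 of the 46 members had a promoter entry. 1 gene that meets the name rule is not reported here and is left out of the member counts, though not of the fits.

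Counts were summed per section, or per section and spot kind, since spots are not replicates, and tested with edgeR 4.0.16 in R 4.3.3: quasi-likelihood test, TMM scaling, filterByExpr, Benjamini-Hochberg adjustment over all genes tested, called under 0.05. Fits within sections had the section as a block. Whole-section fits have 1 residual degree of freedom, from the 2 fibrotic sections, so the lone sections are assumed to vary like them, and p-values measure the spread between these sections only. CPM use the UMIs of the spots concerned and are not TMM-scaled. Intervals are exact Poisson intervals at 95% and, like the floor of 3 counts per section, cover counting error only. Zones came from 9 pericentral and 12 periportal landmark genes.

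The members and gene lists were chosen with earlier results of these data known. Every called member is named, with up to 4 called genes of each list per comparison. Alternatives were DESeq2 1.42.0, no TMM, no filter, other collagen and zone shares, other ligand thresholds, adjustment over all ligand fits together, spots left out and sections left out. The scripts were tested on simulated data.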

Additional observations from a re-analysis of the deposited data

Results flagged for a closer look

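Genes are given here because an interaction term found that a difference between spots was not the same in 2 groups. The zonal difference ran more toward the pericentral side in the CCl4-treated sections than in the healthy section for Ccr6 (3.04), Cxcr4 (1.60), Ccl6 (1.08), Ccl5 (0.96) and Cxcl16 (0.90), on the log2 scale. Cxcl1 (0.45) had a positive term as well. It was periportal in every section, so its zonal difference was smaller in the CCl4-treated sections. The collagen-high minus other difference was larger in the Hk2-deleted than in the fibrotic sections for Cxcl5 (1.89), Ccl2 (1.83) and Ackr3 (1.22). DESeq2 called none of these 3 terms. With spots next to mesothelial markers left out, edgeR called none of them either, and that of Ccl2 reversed. In each case 1 of the groups is a single section, so mouse and group cannot be told apart.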

How the results depend on the processing

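Of 488 values of 58 called results under the alternatives, 399 were counted as the same. These kept their direction and their side of the threshold or, in fits without a p-value, their direction and a value within 1 SE. Of the rest, 80 kept their direction and missed the threshold, 7 in fits without a p-value moved by 1 SE or more, and 2 reversed. The 2 reversals were Cxcl1 after CCl4, at 0.27 for fibrotic replicate 2 plus the Hk2-deleted section against healthy, and Ccl2 in the collagen-high by Hk2 term, at −0.077 with spots next to mesothelial markers left out. After CCl4, members called higher numbered 8 for the same sections. Members called lower numbered 1 with DESeq2, 1 without TMM, 0 with all 3 CCl4-treated sections against healthy and 0 for fibrotic replicate 2 plus the Hk2-deleted section. For Hk2 deletion 2 members were higher in collagen-high spots only, and 1 was lower with no filter on low counts (Cxcr4). Pericentral members numbered 19 without TMM, 13 without the filter, 2 with collagen-high spots left out, and 0 to 19 when 1 section was left out. Over all genes the pericentral count moved too, from 840 in the main fit to 4373 without TMM. It was 1195 without the filter, 778 with collagen-high spots left out, and 114 to 2665 when 1 section was left out. The zone by CCl4 term was positive for 10 and negative for 1 without the filter, and negative for 0 to 1 when 1 section was left out. With the top 20% of spots by collagen, 4 members were lower. The collagen-high by Hk2 term was called for 0 members with DESeq2, 1 with the top 20% and 0 with mesothelial-adjacent spots left out. Receptors called in ligand-positive spots numbered 0 with DESeq2, 1 with neighbouring spots added, 0 with collagen-high spots left out, 0 with 2 or more ligand UMIs, 5 with the top 10% of spots by ligand share (chosen after seeing the data), 2 when adjusted over all ligand fits together (Ccl12-Ccr2 and, in place of Cxcl5-Cxcr2, Ccl2-Ccr2), and 0 to 1 when 1 section was left out; the fits of both called pairs never held the healthy section, so leaving it out counts other pairs only. Of the 5 with the top 10% of spots, Cxcl5-Cxcr2 and Ccl12-Ccr2 were the main fit again, on the same spots. The cause of these changes in counts was not tested. Whole-section fits of fibrotic against healthy, or of Hk2-deleted against fibrotic, have no residual degree of freedom without 1 fibrotic section and gave fold changes only. No paired analysis was possible because the groups share fewer than 2 replicate numbers.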

Other observations

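Further ligands shared spots with other members. Ccl12-positive spots had more Ccl8 (1.46), Cx3cr1 (0.76) and Cxcl10 (0.72), and less Cxcl1 (−0.39). Ccl3-positive spots (1.37% of genes higher) had more Ccl7 (1.33), Ccr2 (0.34), Ccl6 (0.30) and Ccl5 (0.26), all log2 differences in TMM-scaled fits.

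In the authors' deposited table, Ccl8 had a Moran's I of 0.0909 in the Hk2-deleted section, 0.0023 in fibrotic replicate 1, 0.0247 in fibrotic replicate 2 and −0.0030 in the healthy section. For Cxcl5 the authors' deposited table gave 0.0899 in the Hk2-deleted section, 0.0256 in fibrotic replicate 1, 0.0140 in fibrotic replicate 2 and 0.0156 in the healthy section.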
